A study of Homo sapiens with 36 samples.

Results

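The 10 genes described here mark the identity and the differentiation of the intestinal epithelium. They are the transcription factors CDX1, CDX2, HNF4A and ASCL2, the brush border gene VIL1, the fatty acid binding protein gene FABP1, the goblet cell genes MUC2 and TFF3, the cadherin gene CDH17 and the stem cell receptor gene LGR5. They were chosen by name and matched by symbol to Ensembl IDs, 10 of the 60648 IDs in each count table, of which 19942 are protein-coding. The values come from 36 bulk mRNA libraries of HCT116, a human colorectal carcinoma cell line. Its single degron lines UHRF1-AID and DNMT1-AID and the double degron line UHRF1-AID/DNMT1-AID were set against WT, with 3 libraries in each of the 12 groups of line and day. In the derivatives UHRF1, DNMT1 or both proteins carry an auxin-inducible degron tag, and all 4 lines, WT included, express the plant ligase OsTIR1 from a doxycycline-inducible promoter. Every culture, WT included, received 2 µg/mL doxycycline with 20 µM auxinole, a blocker of the system, and then 2 µg/mL doxycycline with 500 µM auxin (together Dox/Auxin) for 2, 6 or 8 days. Day 0 was not analysed here. In a contrast with WT of the same day, an effect of depletion and a difference already present in an edited line therefore cannot be told apart. The study found untreated WT and degron lines much alike by principal component analysis, a view of the whole transcriptome rather than of these genes. The study calls the samples biological triplicates and describes generally 3 clones for a group of degron lines, but no label names the clone of a library, so the p-values measure only the spread between these samples.

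UHRF1 binds hemimethylated DNA after replication and brings DNMT1 to it, and DNMT1 copies the methyl mark onto the new strand. In the gut, CDX2 and its paralog CDX1 are the homeodomain factors that set intestinal identity, and HNF4A is a nuclear receptor that keeps enterocyte genes on. LGR5, a receptor for R-spondins, and ASCL2, a Wnt-responsive factor, mark the stem cells at the crypt base, whereas villin, FABP1, the mucin MUC2 and the trefoil peptide TFF3 belong to the differentiated absorptive and goblet cells. HCT116 is a poorly differentiated line, in which several of these genes are silent.

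Promoter sequence was at hand for 4 of the 10 genes, as RefSeq windows on GRCh38.p14 that run from 250 bases before to 50 bases after the gene's start, 300 bases in all. Of these, 3 are printed because their genes behaved differently in these libraries: CDX2 was read in every library and was higher in the degron lines, HNF4A was read in every library and was lower in the lines with the UHRF1 degron, and FABP1 was all but absent. Each is written 5′ to 3′ on the gene's strand, with every CpG, the site that UHRF1 and DNMT1 act on, in capitals.
CDX2 (chr13:27969266-27969565, minus strand): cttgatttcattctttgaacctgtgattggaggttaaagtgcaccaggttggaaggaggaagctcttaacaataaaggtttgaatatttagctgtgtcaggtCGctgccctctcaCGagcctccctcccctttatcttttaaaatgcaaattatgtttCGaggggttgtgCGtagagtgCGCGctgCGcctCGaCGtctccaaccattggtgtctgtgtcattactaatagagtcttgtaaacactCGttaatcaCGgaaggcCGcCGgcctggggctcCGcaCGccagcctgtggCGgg
HNF4A (chr20:44355449-44355748, plus strand): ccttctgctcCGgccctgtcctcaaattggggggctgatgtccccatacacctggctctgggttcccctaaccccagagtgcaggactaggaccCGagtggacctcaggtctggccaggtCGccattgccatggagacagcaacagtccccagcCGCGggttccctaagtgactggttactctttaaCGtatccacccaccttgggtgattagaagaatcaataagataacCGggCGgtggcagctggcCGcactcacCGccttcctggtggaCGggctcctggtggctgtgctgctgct
FABP1 (chr2:88128013-88128312, minus strand): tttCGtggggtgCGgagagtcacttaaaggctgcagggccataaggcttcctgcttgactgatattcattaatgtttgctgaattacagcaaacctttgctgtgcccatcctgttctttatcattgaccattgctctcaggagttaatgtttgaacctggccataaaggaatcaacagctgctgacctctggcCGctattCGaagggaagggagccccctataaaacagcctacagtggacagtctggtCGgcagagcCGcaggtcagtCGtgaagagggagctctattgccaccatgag
The CDX2 window holds 16 CpG, the HNF4A window 11, the FABP1 window 7 and that of MUC2 9. Across 15333 protein-coding promoters of the same length the median was 22 CpG, with quartiles of 9 and 32. The HNF4A window covers one start only, and the gene has more than one promoter. The letters TTTATNG, a CDX motif searched on both strands, occur in the windows of CDX2, FABP1 and MUC2 and in 8.02% of all promoters. CAGCTG, an E-box that ASCL2 can bind, occurs in those of HNF4A, FABP1 and MUC2 and in 17.7% of promoters. Neither CAAAGTCCA, an HNF4 motif (0.320% of promoters), nor CTTTGAT, a TCF/LEF motif (1.94%), was found in the 4 windows. No methylation value was analysed here.

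Read totals ran between 21074536 and 37175136 per library, with a median of 25031562.5, and protein-coding genes took 90.2 to 92.8% of them. Levels are given as CPM, counts per 1000000 reads after TMM scaling of each library. The call rule was an adjusted p below 0.05, whatever the fold (edgeR quasi-likelihood test over 15415 protein-coding genes, Benjamini-Hochberg within the comparison). Of the 10 genes, 7 passed the filter on low counts, and FABP1, MUC2 and LGR5 did not. CDX1, TFF3 and ASCL2 had so few reads in WT that they could pass only through the groups where they are high. CDH17, with at most 8 reads in a WT library, likewise passed only through degron libraries. Among epithelial markers, EPCAM, an adhesion molecule, averaged 451 CPM in UHRF1-AID/DNMT1-AID and 323 CPM in WT on day 8. By contrast LGALS4, a galectin of the intestinal lining, averaged 0.516 CPM in UHRF1-AID/DNMT1-AID and 0.0150 CPM in WT, from 37 reads against 1. Both were picked from a longer list of markers after their values were seen, so they do not by themselves describe the identity of the line. In bulk samples, more cells with a transcript and more transcript per cell cannot be told apart.

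CDX2 (ENSG00000165556.10, chromosome 13, 27960918 to 27969315, minus strand on GRCh38), the homeodomain factor whose loss turns intestinal cells away from their identity in mice, was the most abundant of the 10 per kb. On day 2 the UHRF1-AID libraries read 20.4, 26.4 and 22.4 CPM, the DNMT1-AID libraries 18.0, 21.6 and 21.6 CPM, the UHRF1-AID/DNMT1-AID libraries 33.4, 32.8 and 34.7 CPM and the WT libraries 19.8, 17.9 and 18.3 CPM. Only the libraries of UHRF1-AID/DNMT1-AID and of UHRF1-AID lay wholly above those of WT on that day. By day 6 the UHRF1-AID libraries read 41.1, 56.0 and 45.6 CPM, the DNMT1-AID libraries 40.6, 40.4 and 41.5 CPM, the UHRF1-AID/DNMT1-AID libraries 77.3, 70.4 and 67.7 CPM and the WT libraries 19.4, 19.1 and 22.1 CPM. By day 8 the UHRF1-AID libraries read 58.5, 82.2 and 64.4 CPM, the DNMT1-AID libraries 75.1, 73.8 and 74.3 CPM, the UHRF1-AID/DNMT1-AID libraries 95.4, 154 and 85.8 CPM and the WT libraries 23.7, 25.01 and 23.6 CPM. On both days no degron library overlapped WT.

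Against WT of the same day, the log2 fold change (± standard error) of CDX2 in UHRF1-AID/DNMT1-AID was 0.85 ± 0.15 at day 2, 1.83 ± 0.15 at day 6 and 2.21 ± 0.15 at day 8, and it rose at each time (adjusted p 9.52e-05, 1.16e-11 and 3.27e-14, edgeR quasi-likelihood). In UHRF1-AID it rose on day 6 (1.23 ± 0.15, adjusted p 9.89e-08, edgeR) and day 8 (1.51 ± 0.15, adjusted p 7.48e-10, edgeR), while the day 2 value of 0.31 was not called (adjusted p 0.147, edgeR). DNMT1-AID gave 0.13 at day 2, which was not called, 1.01 ± 0.15 at day 6 and 1.63 ± 0.15 at day 8 (edgeR adjusted p 0.720, 7.79e-06 and 2.44e-10). The UHRF1-AID/DNMT1-AID library with 154 CPM on day 8, replicate 2, stood apart from its fellows, and without it the day 8 value was 1.91 (adjusted p 5.01e-15, edgeR). Between days 2 and 8, CDX2 changed more in each degron line than in WT, with an excess over WT of 1.20 ± 0.21 for UHRF1-AID, 1.501 ± 0.21 for DNMT1-AID and 1.36 ± 0.21 for UHRF1-AID/DNMT1-AID (log2, edgeR adjusted p 1.24e-04, 3.00e-05 and 5.25e-06).

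CDX1 (ENSG00000113722.17, chromosome 5, 150166778 to 150184558, plus strand), the paralog that acts beside CDX2 in the intestinal epithelium, had 0 reads in all 9 WT libraries, which allows up to 0.0407 CPM on day 8 if 3 reads over the group are taken as the floor. In UHRF1-AID the libraries read 0.318, 0.472 and 0.238 CPM at day 2, 0.470, 0.569 and 0.485 CPM at day 6 and 0.743, 1.36 and 0.943 CPM at day 8. In DNMT1-AID it was lower, with 0.0575, 0 and 0 CPM at day 2, 0.233, 0.218 and 0.0903 CPM at day 6 and 0.0607, 0.171 and 0.356 CPM at day 8. The highest levels were those of UHRF1-AID/DNMT1-AID, at 0.344, 0.615 and 0.372 CPM at day 2, 1.80, 1.16 and 1.08 CPM at day 6 and 3.47, 3.02 and 1.65 CPM at day 8. Every library of UHRF1-AID and UHRF1-AID/DNMT1-AID held CDX1 reads, on all 3 days. On day 8, CDX1 was at least 24.8-fold higher than in WT in UHRF1-AID (adjusted p 2.87e-07), at least 4.21-fold higher in DNMT1-AID (0.00200) and at least 65.1-fold higher in UHRF1-AID/DNMT1-AID (3.89e-10, edgeR quasi-likelihood for all 3). Here and below, a fold given as at least sets WT at the floor of 3 reads. It leaves out the counting error of the degron reads. CDX1 was also called on days 2 and 6 in UHRF1-AID and UHRF1-AID/DNMT1-AID and on day 6 in DNMT1-AID. The day 2 value of DNMT1-AID rests on reads in 1 library and was not called (adjusted p 0.568, edgeR).

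**Figure D1:**
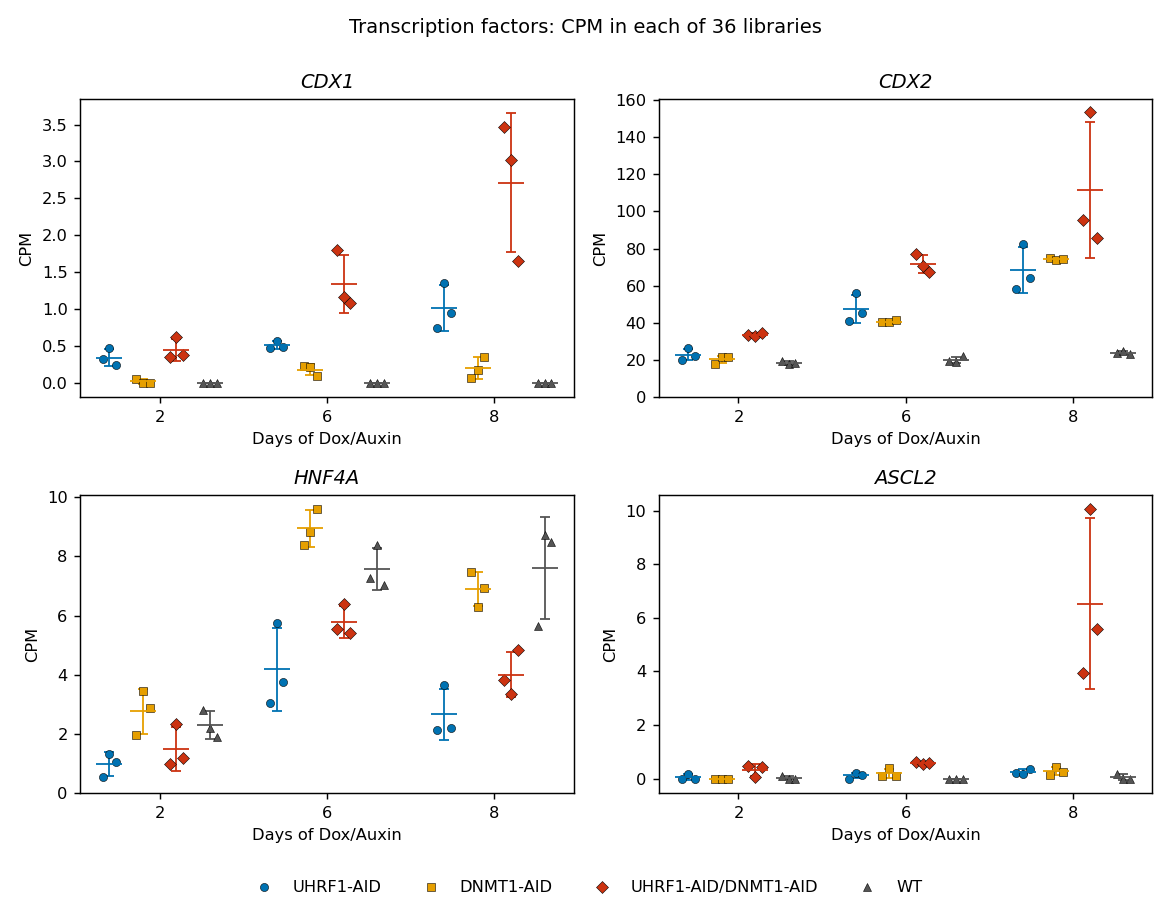
CPM (y axis, counts per 1000000 reads after TMM scaling) of the transcription factor genes CDX1, CDX2, HNF4A and ASCL2 against days of Dox/Auxin, with 1 point per library and the mean ± SD of 3 libraries, for UHRF1-AID, DNMT1-AID, UHRF1-AID/DNMT1-AID and WT from left to right on each day. CDX2 in the degron lines climbs over days 2 to 8 to a mean of 112 CPM in UHRF1-AID/DNMT1-AID on day 8, against 24.1 CPM in WT, CDX1 is at 0 in all WT libraries, and ASCL2 stands above 1 CPM only in the 3 UHRF1-AID/DNMT1-AID libraries of day 8.

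HNF4A (ENSG00000101076.18, chromosome 20, 44355699 to 44432845, plus strand), the nuclear receptor, went the other way in the lines with the UHRF1 degron. On day 2 the UHRF1-AID libraries read 0.545, 1.33 and 1.07 CPM, the DNMT1-AID libraries 1.95, 3.46 and 2.88 CPM, the UHRF1-AID/DNMT1-AID libraries 0.975, 2.34 and 1.18 CPM and the WT libraries 2.81, 2.22 and 1.89 CPM. By day 6 the UHRF1-AID libraries read 3.03, 5.76 and 3.76 CPM, the DNMT1-AID libraries 8.39, 8.83 and 9.61 CPM, the UHRF1-AID/DNMT1-AID libraries 5.55, 6.39 and 5.40 CPM and the WT libraries 7.28, 8.38 and 7.04 CPM. By day 8 the UHRF1-AID libraries read 2.12, 3.67 and 2.21 CPM, the DNMT1-AID libraries 7.47, 6.29 and 6.92 CPM, the UHRF1-AID/DNMT1-AID libraries 3.82, 3.36 and 4.83 CPM and the WT libraries 5.63, 8.73 and 8.47 CPM. UHRF1-AID lay below WT without overlap on each day, UHRF1-AID/DNMT1-AID did so on days 6 and 8, and DNMT1-AID overlapped WT on days 2 and 8.

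In UHRF1-AID, HNF4A fell relative to WT at day 2 (log2 fold change -1.22 ± 0.32, adjusted p 0.00452), day 6 (-0.85 ± 0.24, adjusted p 0.00924) and day 8 (-1.52 ± 0.25, adjusted p 9.42e-06, edgeR quasi-likelihood). The day 6 call was lost without UHRF1-AID replicate 1 (-0.67, adjusted p 0.0629, edgeR). In UHRF1-AID/DNMT1-AID the test was passed on day 8 alone (-0.93 ± 0.25, adjusted p 0.00147, edgeR), with -0.63 on day 2 and -0.38 on day 6. On day 2 the library that lay within the WT range was replicate 2, and without it the value was -1.10 (adjusted p 0.0266, edgeR). DNMT1-AID was not called on any day, with 0.26, 0.24 and -0.14. HNF4A also moved with time in WT, by 1.71 ± 0.27 for day 6 and 1.72 ± 0.27 for day 8 against day 2 (log2, edgeR adjusted p 8.49e-07 and 1.18e-06). The change between days 2 and 8 did not differ from that of WT at the threshold in any degron line (log2 difference -0.30 ± 0.42 for UHRF1-AID, -0.40 ± 0.38 for DNMT1-AID and -0.30 ± 0.41 for UHRF1-AID/DNMT1-AID).

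**Figure D2:**
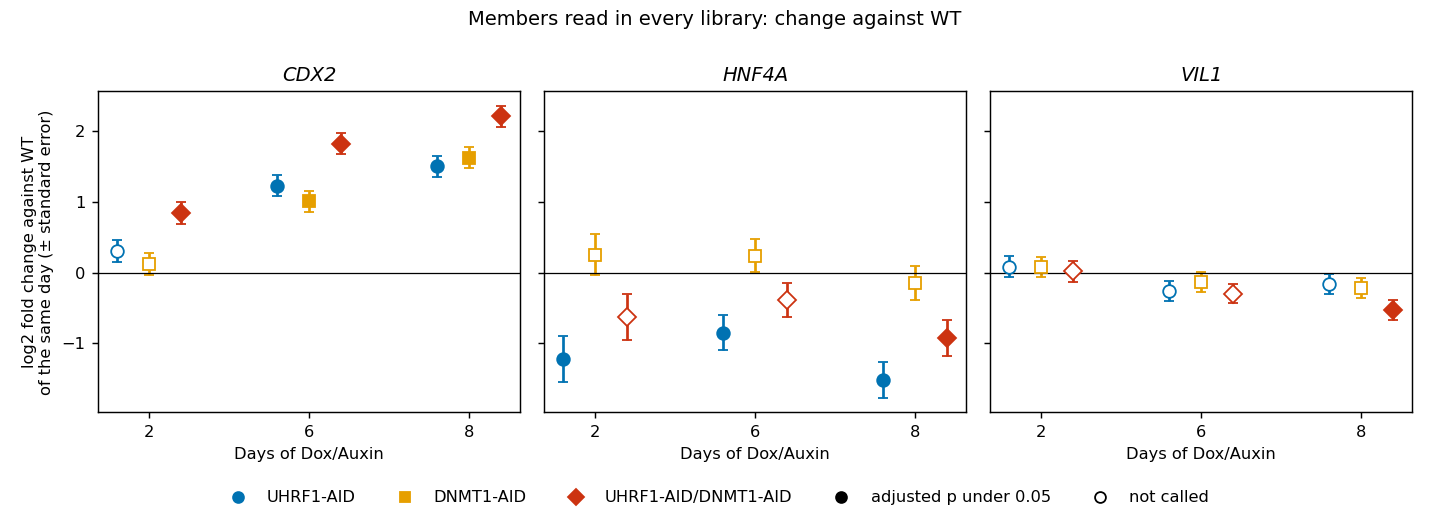
Log2 fold change against WT of the same day (y axis, ± standard error, edgeR) of CDX2, HNF4A and VIL1 against days of Dox/Auxin in the single lines UHRF1-AID and DNMT1-AID and the double line UHRF1-AID/DNMT1-AID, filled where the adjusted p was under 0.05. CDX2 reaches 2.21 in UHRF1-AID/DNMT1-AID on day 8, HNF4A is lowest in UHRF1-AID on day 8 at -1.52, and VIL1 has 1 filled point, at -0.53.

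VIL1 (ENSG00000127831.11, chromosome 2, 218419121 to 218453295, plus strand) encodes villin, the actin-bundling protein of microvilli, and varied least of the genes read in every library. All 36 libraries lay between 7.89 and 17.2 CPM. On day 8 the UHRF1-AID libraries read 11.8, 15.4 and 13.8 CPM, the DNMT1-AID libraries 13.0, 13.7 and 12.6 CPM, the UHRF1-AID/DNMT1-AID libraries 10.3, 7.89 and 13.4 CPM and the WT libraries 13.6, 17.2 and 14.9 CPM. The libraries of UHRF1-AID/DNMT1-AID lay just below those of WT, at 13.4 against 13.6 CPM for the nearest pair, and DNMT1-AID and UHRF1-AID overlapped WT. VIL1 fell in UHRF1-AID/DNMT1-AID at that time (log2 fold change -0.53 ± 0.14, adjusted p 0.00144, edgeR) and was not called in the other 8 comparisons with WT. With offsets for transcript GC content and length the call was lost and the value turned to 0.02 (adjusted p 0.889, edgeR), and without replicate 2 of UHRF1-AID/DNMT1-AID it was -0.35 (adjusted p 0.0317, edgeR). VIL1 shares 3045 of its 6891 exonic bases (44.2%) with USP37, a deubiquitinase gene on the opposite strand, and the strand setting of the gene counts is not given in the sources used here. The study counted transposable elements in these bulk libraries without strand and tied that choice to how the libraries were made, and without strand the reads of VIL1 and USP37 in the shared bases cannot be told apart. USP37 itself fell to a mean of 13.6 CPM in UHRF1-AID/DNMT1-AID, against 31.1 CPM in WT (-1.19 ± 0.13, edgeR adjusted p 6.85e-10), and its part in the VIL1 value was not tested.

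TFF3 (ENSG00000160180.17, chromosome 21, 42311667 to 42315409, minus strand), the trefoil peptide that goblet cells secrete with mucus, was also at 0 reads in all 9 WT libraries. In UHRF1-AID the libraries read 0.4998, 0.3003 and 0.596 CPM at day 2, 0.939, 0.728 and 0.485 CPM at day 6 and 1.77, 1.83 and 1.53 CPM at day 8. In DNMT1-AID no library held a read on day 2, and the levels were 0.0998, 0.306 and 0.135 CPM at day 6 and 0.334, 0.214 and 0.407 CPM at day 8. In UHRF1-AID/DNMT1-AID they were 0.402, 0.554 and 0.310 CPM at day 2, 0.686, 0.579 and 0.475 CPM at day 6 and 1.68, 2.31 and 1.77 CPM at day 8. UHRF1-AID and UHRF1-AID/DNMT1-AID thus overlapped each other on every day and lay above DNMT1-AID without overlap. On day 8, TFF3 was at least 41.9-fold higher than in WT in UHRF1-AID (adjusted p 4.31e-09), at least 7.77-fold higher in DNMT1-AID (4.41e-05) and at least 47.5-fold higher in UHRF1-AID/DNMT1-AID (5.02e-10, edgeR quasi-likelihood for all 3). It was called in 8 of the 9 comparisons with WT and had no estimate in DNMT1-AID on day 2. In the same cluster lies TFF2, a trefoil gene of the stomach (42346357 to 42350997), which on day 8 had 4.14 to 6.57 CPM over the UHRF1-AID libraries, 0 to 0.728 CPM over those of DNMT1-AID, 9.50 to 11.8 CPM over those of UHRF1-AID/DNMT1-AID and 0 reads in WT. TFF1, the third gene of the cluster (42362282 to 42366535), had 0 reads in all libraries of day 8.

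The other differentiation genes were barely read. MUC2 (ENSG00000198788.9, chromosome 11, 1074875 to 1110511, plus strand), which encodes the gel-forming mucin of the gut, had 34 reads over the 3 UHRF1-AID/DNMT1-AID libraries of day 8 and 1 read over those of WT, a ratio of 36.7 (95% exact counting interval 6.16 to 1492). These reads were spread unevenly, with 0.815, 0.0840 and 0.644 CPM in UHRF1-AID/DNMT1-AID. On day 6 the MUC2 reads numbered 21 over the UHRF1-AID libraries, 7 over those of DNMT1-AID, 15 over those of UHRF1-AID/DNMT1-AID and 1 over those of WT. Such intervals cover counting error only. CDH17 (ENSG00000079112.10, chromosome 8, 94127162 to 94217303, minus strand), a cadherin of the intestinal epithelium, had at most 18 reads in a library. On day 8 the UHRF1-AID libraries read 0.425, 0.330 and 0.130 CPM, the DNMT1-AID libraries 0.121, 0.0428 and 0.356 CPM, the UHRF1-AID/DNMT1-AID libraries 0.459, 0.252 and 0.644 CPM and the WT libraries 0, 0.0450 and 0.270 CPM. All 3 degron lines overlapped WT there. CDH17 was called once, in the double degron line at day 8 (log2 fold change 1.89 ± 0.79, adjusted p 0.0343, edgeR), and this call was lost with scaling by library size only (1.71, adjusted p 0.0561) and when any of 4 libraries was left out (edgeR adjusted p up to 0.140). FABP1 (ENSG00000163586.10, chromosome 2, 88122982 to 88128062, minus strand), the fatty acid binding protein of liver and small intestine, had 2 reads in 1 of the 36 libraries, in UHRF1-AID/DNMT1-AID on day 6, and 0 elsewhere. A change in FABP1 was not detectable at this depth.

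**Figure D3:**
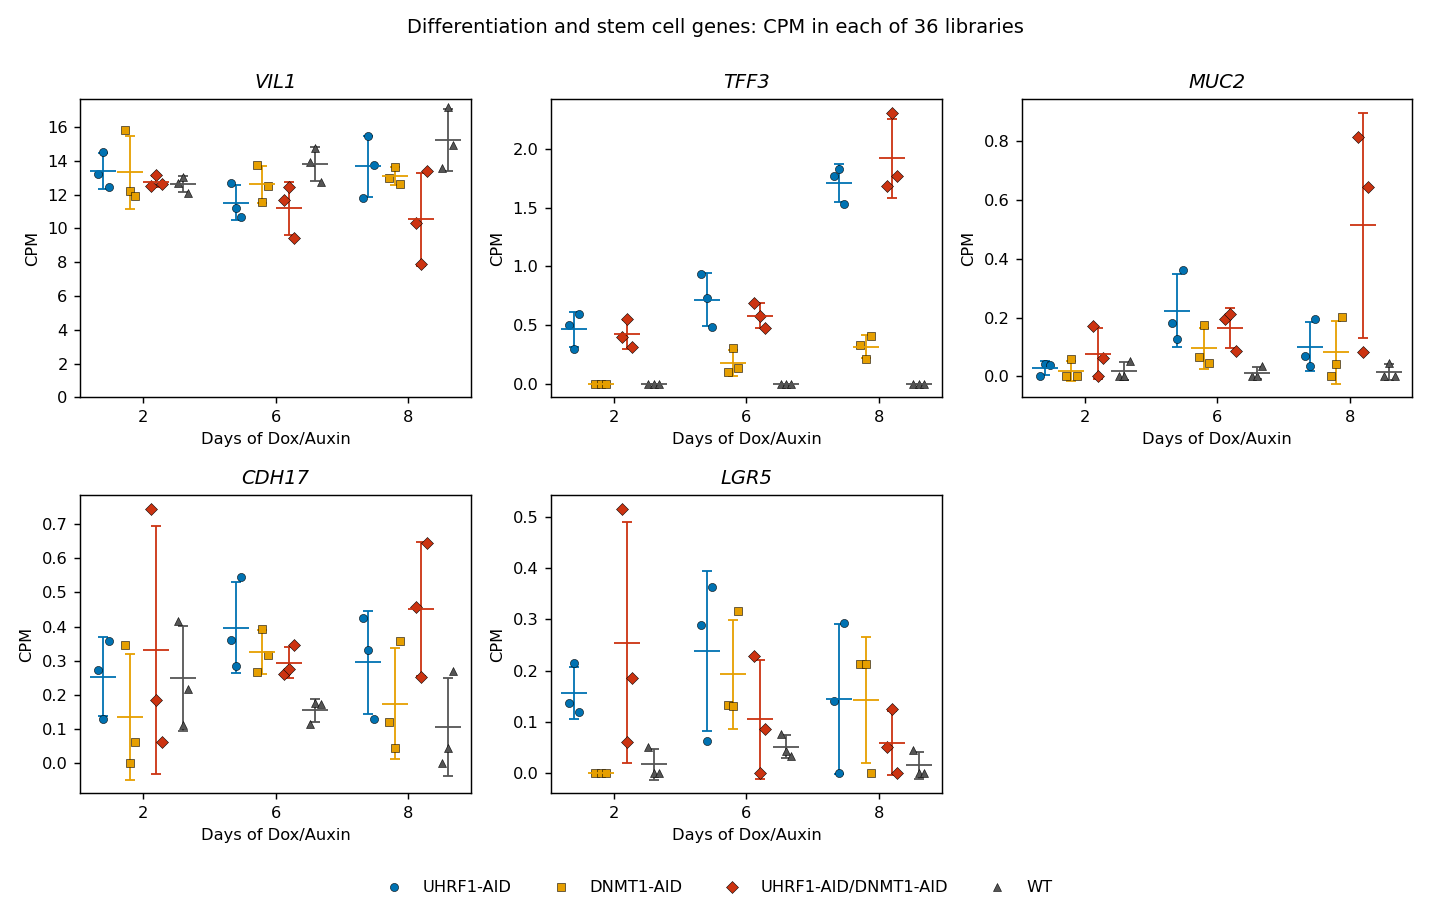
CPM (y axis) of VIL1, TFF3, MUC2, CDH17 and LGR5 against days of Dox/Auxin, with 1 point per library and the mean ± SD of 3 libraries, for UHRF1-AID, DNMT1-AID, UHRF1-AID/DNMT1-AID and WT from left to right on each day. VIL1 keeps between 7.89 and 17.2 CPM in all groups, TFF3 is at 0 in WT and at 1.53 CPM or more in UHRF1-AID and UHRF1-AID/DNMT1-AID on day 8, and the other panels show a few reads per library.

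Of the stem cell genes, ASCL2 (ENSG00000183734.5, chromosome 11, 2268498 to 2270588, minus strand), the basic helix-loop-helix factor of crypt base cells, was highest on day 8 in the double degron line. On day 8 it stood at 3.92, 10.1 and 5.60 CPM in UHRF1-AID/DNMT1-AID, whereas the UHRF1-AID libraries read 0.212, 0.183 and 0.358 CPM, the DNMT1-AID libraries 0.121, 0.428 and 0.254 CPM and the WT libraries 0.183, 0 and 0 CPM. The lowest UHRF1-AID/DNMT1-AID library thus lay above all 9 others. Its level in that line had been 0.459, 0.0615 and 0.434 CPM on day 2 and 0.620, 0.548 and 0.562 on day 6, where WT had 0 reads on day 6. Within the line, day 8 exceeded day 2 by 4.33 (log2, adjusted p 6.73e-07, edgeR). The change between these days did not differ from that in WT at the threshold (3.78, adjusted p 0.210, edgeR). That difference rests on 2 WT reads on day 2 and 4 on day 8, each in 1 library. It ran between 0.79 and 7.31 when 1 library was left out, and it was called under at least 1 other setting. The data therefore do not settle whether the rise exceeded that in WT. ASCL2 rose in UHRF1-AID/DNMT1-AID on day 8, with a log2 fold change of 6.77 ± 0.80 (adjusted p 1.09e-08, edgeR) and was at least 15.0-fold higher than in WT on day 6 (adjusted p 3.30e-04, edgeR). Without replicate 2, the library with 10.1 CPM, the day 8 value was 6.31 (adjusted p 2.45e-07, edgeR). WT held its ASCL2 reads in 1 library on day 8, and leaving out each library in turn gave 6.09 to 10.30. In DNMT1-AID, ASCL2 was called on day 6 only (adjusted p 0.0473, edgeR). It had 14 reads there against 0 in WT, 4.85-fold with WT set at the floor of 3 reads. This call was lost without any of 5 of the 6 libraries (edgeR adjusted p up to 0.209) and by limma-voom (0.0687).

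LGR5 (ENSG00000139292.13, chromosome 12, 71439798 to 71586310, plus strand), the R-spondin receptor that marks intestinal stem cells, had at most 12 reads in any library. On day 8 it had 13 reads over the 3 UHRF1-AID libraries, 12 in DNMT1-AID, 4 in UHRF1-AID/DNMT1-AID and 1 in WT. The ratio of UHRF1-AID to WT was 11.1 (95% exact counting interval 1.67 to 472), that of DNMT1-AID to WT 11.6 (1.72 to 498) and that of UHRF1-AID/DNMT1-AID to WT 4.32 (0.427 to 213). LGR5 thus did not share the day 8 level of ASCL2 in UHRF1-AID/DNMT1-AID. It shares 3.98% of its exonic bases with an antisense lncRNA that had 17 reads over all libraries, against 104 for LGR5.

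Of the 10 genes, UHRF1-AID had 2 called higher and 1 lower than WT on day 2, when 26.5% of all genes tested were called (12.1% higher and 14.4% lower). On day 6 it had 3 higher and 1 lower (24.7% of all genes, 14.3% higher and 10.5% lower) and on day 8 again 3 and 1 (45.3%, 24.2% higher and 21% lower). DNMT1-AID had 0 called on day 2 by edgeR, 0 at an unadjusted p under 0.05 and 0 by DESeq2, where 3.38% of all genes were called (2.67% higher and 0.714% lower). On day 6 it had 4 higher (13.2% of all genes, 8.84% higher and 4.35% lower), and on day 8 it had 3 higher (47.5%, 25.1% higher and 22.4% lower). UHRF1-AID/DNMT1-AID had 3 higher on day 2 (27.8% of all genes, 16.3% higher and 11.5% lower) and 4 higher on day 6 (40.9%, 19% higher and 21.9% lower). On day 8 it had 5 higher and 2 lower, when 68.5% of all genes were called (35.7% higher and 32.8% lower). Since CDX1, TFF3, ASCL2 and CDH17 could pass the filter only through degron libraries, these counts describe the genes and do not set them apart from the rest.

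In WT, HNF4A was the only one of the 10 called for day 6 against day 2, where 67.7% of all genes tested were called. For day 8 against day 2 (59.8%) HNF4A and CDX2 were called, CDX2 with a log2 fold change of 0.37 ± 0.15 (adjusted p 0.0387, edgeR). That CDX2 call was lost when any of 5 of the 6 libraries was left out and turned to -0.06 with offsets for GC content and length (adjusted p 0.789, edgeR). For day 8 against day 6 (34.5%) 0 were called by edgeR, 0 had an unadjusted p under 0.05 and 0 were called by DESeq2. The difference of the change between days 2 and 8 from that in WT was called for CDX2 in UHRF1-AID (17.8% of genes tested) and DNMT1-AID (16.3%), and for CDX2 and VIL1 in UHRF1-AID/DNMT1-AID (38.7%), VIL1 with -0.55 ± 0.20 (adjusted p 0.0317, edgeR). This VIL1 call was lost with GC content and length offsets (-0.24, adjusted p 0.416, edgeR) and when any of 5 of the 12 libraries was left out, with -0.37 (adjusted p 0.144, edgeR) without UHRF1-AID/DNMT1-AID day 8 replicate 2. CDX1 and TFF3 had no estimate there, because WT had 0 reads on both days. Within the lines, in comparisons added after this was seen, day 8 was therefore set against day 2. CDX1 rose within UHRF1-AID by 1.55 ± 0.48, within DNMT1-AID by 2.89 ± 1.10 and within UHRF1-AID/DNMT1-AID by 2.596 ± 0.47 (log2, edgeR adjusted p 0.00483, 0.0212 and 1.24e-05). TFF3 rose by 1.86 ± 0.40 in UHRF1-AID and by 2.18 ± 0.42 in UHRF1-AID/DNMT1-AID (edgeR adjusted p 1.57e-04 and 4.67e-05), where 70.4% and 75.7% of all genes were called, and 69% were called within DNMT1-AID. Within DNMT1-AID, TFF3 was also called higher (adjusted p 7.76e-05, edgeR), from 24 reads on day 8 against 0 on day 2. With offsets for GC content and length the CDX1 value in UHRF1-AID was 1.00 (adjusted p 0.0743) and that in DNMT1-AID 2.36 (0.0866, edgeR). The CDX1 value within DNMT1-AID has 1 read on its day 2 side, ran between 2.20 and 5.15 when 1 library was left out, and lost its call without day 2 replicate 2, day 2 replicate 3 or day 8 replicate 3 (edgeR adjusted p 0.0762, 0.0750 and 0.109).

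Between the degron lines on day 8, UHRF1-AID had CDX1 and TFF3 higher and HNF4A lower than DNMT1-AID (18.3% of genes tested were called). The log2 differences were 2.47 ± 0.52 for CDX1, 2.41 ± 0.42 for TFF3 and -1.37 ± 0.25 for HNF4A (edgeR adjusted p 0.00153, 2.39e-04 and 3.02e-04). CDX2 did not differ between these lines at the threshold, with -0.12 ± 0.14 (adjusted p 0.576, edgeR). UHRF1-AID/DNMT1-AID had CDX1, CDX2 and ASCL2 higher and VIL1 lower than UHRF1-AID (43.8%), with 1.41 ± 0.40, 0.71 ± 0.14, 4.66 ± 0.63 and -0.37 ± 0.14 (edgeR adjusted p 0.00529, 1.31e-04, 9.51e-07 and 0.0319). The VIL1 difference was lost with RLE scaling (-0.34, adjusted p 0.0504), with GC and length offsets (-0.14, adjusted p 0.484) and without any of 4 libraries (edgeR). Against DNMT1-AID (46.1%), UHRF1-AID/DNMT1-AID had CDX1, CDX2, TFF3 and ASCL2 higher, by 3.88 ± 0.50, 0.58 ± 0.14, 2.58 ± 0.42 and 4.64 ± 0.64, and HNF4A lower, by -0.78 ± 0.25 (edgeR adjusted p 4.82e-07, 9.59e-04, 1.53e-05, 1.00e-06 and 0.0105). Without UHRF1-AID/DNMT1-AID replicate 2 the CDX2 difference was 0.28 (adjusted p 0.0570) and that of HNF4A -0.68 (0.0570, edgeR), so that 3 of these 5 calls were left.

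Per kb of exon, the mean level in UHRF1-AID/DNMT1-AID on day 8 was 31.7 CPM for CDX2, 4.40 for ASCL2, 2.08 for TFF3, 1.53 for both CDX1 and VIL1, and 0.394 for HNF4A. In WT on that day it was 6.85 CPM per kb for CDX2, 2.21 for VIL1, 0.748 for HNF4A, 0.0411 for ASCL2 and 0 for CDX1 and TFF3. CDX2 was thus the highest of the 10 per kb in both lines, and VIL1, next after CDX2 in WT, stood beside CDX1 in UHRF1-AID/DNMT1-AID. These lengths count all annotated exons of a gene, and the order below CDX2 may depend on that choice. For HNF4A they give 10167 bases, against 4645 in its canonical transcript. For VIL1 they include the 3045 of 6891 bases shared with USP37.

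Over the 12 groups, CDX2 was highest in UHRF1-AID/DNMT1-AID on day 8, which overlapped no other group. DNMT1-AID on day 8, UHRF1-AID/DNMT1-AID on day 6 and UHRF1-AID on day 8 came next and overlapped one another. Below them, without overlap, lay UHRF1-AID and DNMT1-AID on day 6, which overlapped each other. UHRF1-AID/DNMT1-AID on day 2 followed and overlapped no other group. The 3 WT groups and the day 2 groups of UHRF1-AID and DNMT1-AID were lowest, and each overlapped the next. For CDX1, day 8 of UHRF1-AID/DNMT1-AID overlapped its own day 6, and that overlapped day 8 of UHRF1-AID. HNF4A was highest in DNMT1-AID on day 6 (8.94 CPM on average) and lowest in UHRF1-AID on day 2 (0.982 CPM), and each group in its order overlapped the next. By the root mean square difference of centred log2 group means over the 12 groups, the genes of at least 1 CPM on average whose pattern came nearest to CDX2 were PCOLCE (0.19) and MSX1 (0.21). For HNF4A they were GRHL2 (0.27) and ZHX2 (0.29), for CDX1 FTCD (0.41) and SCG5 (0.45), for TFF3 GRAP (0.36) and PRCD (0.48), and for ASCL2 PODXL2 (0.45) and PYCARD (0.69). VIL1 and CDH17 spanned less than a log2 range of 2 over the groups and were not matched.

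The wider intestinal programme and other tissues were read from lists of 180 further genes, in which a gene with no or almost no reads in WT could be tested only through the groups where it is high. Among 20 other intestinal transcription factors, of which 18 were tested, 3 were higher and 7 lower in UHRF1-AID/DNMT1-AID than in WT on day 8, with a median log2 fold change of -0.34 beside 0.03 over all genes. GATA4, a zinc finger factor of the proximal gut, stood at 7.29, 7.68 and 4.87 CPM in UHRF1-AID/DNMT1-AID and at 0 in WT, at least 161-fold higher, and FOXA2 rose by 3.34 ± 0.79 (edgeR adjusted p 3.97e-04). HNF4G, the paralog of HNF4A, fell by 1.75 ± 0.20 on the log2 scale, and TCF7L2, the main nuclear partner of beta-catenin in the gut, fell by 0.94 ± 0.16 (edgeR adjusted p 2.78e-09 and 1.05e-05). The list thus held members that moved opposite ways, as CDX2 and HNF4A did.

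Of 30 enterocyte and colonocyte genes, 22 were too low to test, and 4 of the other 8 were higher and 3 lower in UHRF1-AID/DNMT1-AID on day 8 (median 0.72). ANPEP, the brush border aminopeptidase N, stood at 10.6, 10.5 and 11.5 CPM in UHRF1-AID/DNMT1-AID and at 0, 0 and 0.0337 in WT. SLC5A1, the sodium-glucose cotransporter, was at least 77.7-fold higher than WT, and ALPG, an alkaline phosphatase best known from germ cells and placenta, stood at 50.5 CPM in UHRF1-AID/DNMT1-AID and 0.114 CPM in WT on average. CA2, a carbonic anhydrase of colonocytes, fell by 1.98 ± 0.28, and SLC26A2 and SLC15A1 fell by 0.54 and 0.62 (log2). Of 14 brush border genes, 12 were tested, and 7 were higher and 2 lower (median 0.70). CDHR5, a cadherin that links microvilli, rose by 5.50 ± 0.70 and MYO7B, a myosin of the same complex, by 4.46 ± 0.42, whereas EPS8 and PLS1, which cap and bundle microvillar actin, fell by 1.36 ± 0.14 and 0.77 ± 0.09 (log2, all called by edgeR).

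Of 20 goblet and secretory genes, 12 were tested, and 9 were higher and 1 lower in UHRF1-AID/DNMT1-AID on day 8 (median 2.02). CREB3L1, a membrane-bound transcription factor of secretory cells, stood at 43.9, 58.1 and 36.6 CPM in UHRF1-AID/DNMT1-AID against 0.961, 2.56 and 1.32 in WT, and FCGBP, a mucus protein, rose by 1.92 ± 0.24 (edgeR adjusted p 2.20e-08). Of 17 enteroendocrine and Paneth cell genes, 6 were tested, with 4 higher, among them SCG5 (6.40 ± 0.45), and 1 lower, SCG2 (-1.99 ± 0.35). The 29 stem cell and Wnt target genes split, with 10 of 24 tested higher and 6 lower (median 0.08). NOTUM, a secreted Wnt inhibitor and Wnt target, stood at 1230, 1678 and 1237 CPM in UHRF1-AID/DNMT1-AID against 38.3, 34.8 and 39.1 in WT, and LGR6, a relative of LGR5, was at least 72.3-fold higher, whereas LGR4 fell by 1.10 ± 0.17 on the log2 scale. Of 17 adhesion and epithelial markers, 13 were tested, with 8 higher, such as CLDN3 (1.99 ± 0.11) and KRT18 (1.37 ± 0.11), and 1 lower, CLDN4 (-0.63 ± 0.10). As the background on that day, 35.7% of all genes tested were higher and 32.8% lower. Given the filter on low counts and the choice of lists with earlier results known, the shares do not set the lists apart.

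**Figure D4:**
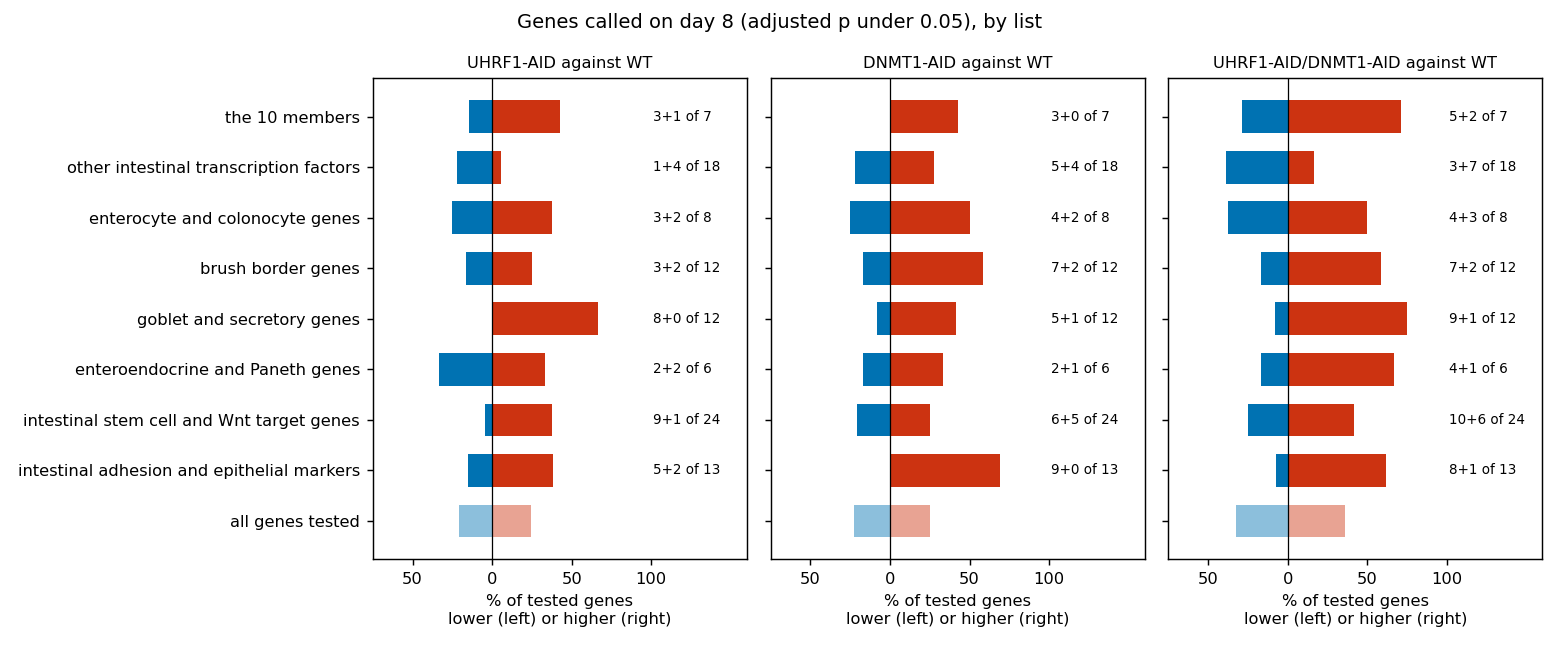
Share of tested genes called higher (right, red) or lower (left, blue) than WT on day 8, in percent on the x axis, for the 10 genes and 7 further lists, with all genes tested in the lowest bars, for the single lines UHRF1-AID and DNMT1-AID and the double line UHRF1-AID/DNMT1-AID. The numbers beside the bars give higher + lower of the genes tested, for instance 9+1 of 12 goblet and secretory genes in UHRF1-AID/DNMT1-AID, beside 35.7% higher and 32.8% lower among all genes tested.

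Lists of genes from other tissues were read as well, and most of their genes were too low to test. In UHRF1-AID/DNMT1-AID against WT on day 8, 35.7% of all genes tested were higher and 32.8% lower. A gene with almost no reads in WT was tested only through groups where it is high, so the counts below do not set these lists apart. Of 10 gastric genes, 3 were tested and all 3 were higher in UHRF1-AID/DNMT1-AID on day 8: TFF2, GAST and MUC5AC. They had 0, 2 and 0 reads over the WT libraries of that day. Their list summed to 4.81 to 8.47 CPM over the UHRF1-AID libraries, 0.486 to 1.03 CPM over those of DNMT1-AID, 13.1 to 16.1 CPM over those of UHRF1-AID/DNMT1-AID and 0.0900 to 0.371 CPM over those of WT. Of 8 liver genes, both that were tested were higher (TF and SERPINA1), and of 7 fibroblast genes, 2 of 3 tested. Of 8 immune and endothelial genes, 5 were tested, with 3 higher and 1 lower. Among them PECAM1, an endothelial adhesion molecule, averaged 2.33 CPM in UHRF1-AID/DNMT1-AID and 0.0150 CPM in WT, and CD68, a macrophage marker, averaged 17.4 CPM in UHRF1-AID/DNMT1-AID and 32.7 CPM in WT. The summed level of that list was 19.4 to 25.9 CPM in UHRF1-AID/DNMT1-AID and 27.2 to 38.6 CPM in WT. The part of these genes' sources in the values of CDX1, TFF3 or ASCL2 was not tested.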

How the data were processed

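The submitters' processing notes name STAR, featureCounts and the build hg38. For the gene counts, the annotation release, the strand setting and the treatment of multi-mapping reads are not given in the sources used here, while the study's separate count of transposable elements in these libraries ignored strand. The authors deposited raw counts per gene, whole numbers without normalization, 1 table per library. Of 60648 Ensembl IDs, 60462 were matched to GENCODE v44 by ID without version and 186 were left out. The 19942 protein-coding genes were filtered with filterByExpr (minimum count 10), scaled by TMM and fitted with edgeR 4.0.16 (robust quasi-likelihood, 1 mean per group over 36 libraries, 24 residual degrees of freedom) in R 4.3.3. Tests were two-sided, with Benjamini-Hochberg adjustment over 15415 genes within a comparison.

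The 10 genes and all lists were chosen with earlier results of these data known. From each further list, the up to 3 called genes of smallest adjusted p in each direction in UHRF1-AID/DNMT1-AID against WT on day 8, with at least 1 CPM in a group, were candidates for naming, and genes outside this rule (EPCAM, LGALS4, USP37, TFF1) were named after their values were seen. Some genes that the rule would name are not reported here. Gene lengths are exonic lengths of GENCODE v44. Folds against 0 reads take 3 reads over the group as the floor. They bound the side with 0 reads only and leave out the counting error of the other group.

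Alternatives were RLE or no scaling, no filter, all biotypes, DESeq2 1.42.0, limma-voom (limma 3.58.1), GC and length offsets (mgcv 1.9.3), fits on the compared libraries only, a replicate block, and leaving out each library. Same-numbered libraries were checked for pairing by the correlation of their deviations from the group means: it was above 0.1 for every number in 2 of 24 comparisons, day 8 against day 2 within UHRF1-AID (0.186 to 0.326) and DNMT1-AID (0.119 to 0.14), and not between lines (-0.08 to 0.127). Tested on simulated data for UHRF1-AID/DNMT1-AID against WT on day 8 (14942 genes), the model called 98.1% of genes changed 2-fold above 20 CPM, 38.3% of those at 20 CPM or less, and 11 of 14745 unchanged genes.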

Additional observations from a re-analysis of the deposited data

Results flagged for a closer look

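Several of the 10 genes differed between degron lines on day 8 by the test of the difference itself (edgeR quasi-likelihood, log2 scale). UHRF1-AID differed from DNMT1-AID by 2.47 for CDX1, 2.41 for TFF3 and -1.37 for HNF4A. UHRF1-AID/DNMT1-AID differed from UHRF1-AID by 1.41 for CDX1, 0.71 for CDX2, 4.66 for ASCL2 and -0.37 for VIL1. It differed from DNMT1-AID by 3.88 for CDX1, 0.58 for CDX2, 2.58 for TFF3, 4.64 for ASCL2 and -0.78 for HNF4A. The VIL1 difference from UHRF1-AID was lost with RLE scaling (-0.34, adjusted p 0.0504, edgeR), with GC content and length offsets and without any of 4 libraries, and the CDX2 and HNF4A differences from DNMT1-AID were lost without UHRF1-AID/DNMT1-AID replicate 2 (0.28 and -0.68, adjusted p 0.0570 for both, edgeR). The change between days 2 and 8 differed from that in WT for CDX2, with an excess of 1.20 for UHRF1-AID, 1.501 for DNMT1-AID and 1.36 for UHRF1-AID/DNMT1-AID, and for VIL1 in UHRF1-AID/DNMT1-AID, by -0.55. The VIL1 call was lost with GC content and length offsets (-0.24, adjusted p 0.416, edgeR) and when any of 5 of the 12 libraries was left out (adjusted p up to 0.144, edgeR).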

How the results depend on the processing

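Over 176 results, 1693 of 1751 values under other settings kept their direction and their side of the threshold, 36 passed it newly, 17 lost it and 5 reversed. A result whose gene was not tested under a setting has no value there and is not counted. This applies mostly to genes of low counts. With GC content and length offsets, CDX2 in WT for day 8 against day 2 reversed to -0.064 with the replicate block and -0.0626 without it, CDX2 in WT for day 6 against day 2 to -0.34 with the block, and VIL1 in UHRF1-AID/DNMT1-AID against WT on day 8 to 0.0309 with the block and 0.0248 without it. The cause was not tested. Fitted on the compared libraries only, the genes called numbered 1 for UHRF1-AID against WT on day 2, 1 for DNMT1-AID on day 6, 1 for DNMT1-AID on day 8, 1 for UHRF1-AID/DNMT1-AID on day 2, 2 for UHRF1-AID/DNMT1-AID against UHRF1-AID on day 8, 1 for the change in UHRF1-AID/DNMT1-AID and 1 for WT day 8 against day 6. That fit has fewer residual degrees of freedom, and its filter on low counts was applied anew. Under it 109 results stayed on their side of the threshold, 5 passed it newly and 3 lost it. The other results had no value there because their genes failed the filter, such as CDX1 and TFF3 in UHRF1-AID against WT on day 2. A lower count can thus reflect genes that were not tested. The change in UHRF1-AID/DNMT1-AID gave 1 under GC and length offsets with and without the block, WT day 6 against day 2 gave 2 under offsets with the block and 3 with library size only, and WT day 8 against day 2 gave 1 under offsets with and without the block and 1 by limma-voom. Leaving out each library in turn gave 3 to 6 genes called for UHRF1-AID/DNMT1-AID against DNMT1-AID on day 8 (3 without UHRF1-AID/DNMT1-AID replicate 2), 3 to 5 for UHRF1-AID/DNMT1-AID against WT on day 2 (5 without its replicate 2), 1 to 2 for the change in UHRF1-AID/DNMT1-AID and 1 to 2 for WT day 8 against day 2, and the other counts stayed within 1 of their value. Same-numbered libraries were not paired between lines, and the replicate block left 172 of 176 results on their side and brought 4 past it, among them HNF4A in UHRF1-AID/DNMT1-AID against UHRF1-AID on day 8 (0.62). Within UHRF1-AID and DNMT1-AID the block within line changed 1 call, ASCL2 in UHRF1-AID (2.17, adjusted p 0.0493, edgeR, against 0.0787 without). Library size scaling alone moved the median of all genes by between -0.19 and 0.29. In the simulated data, in which 14745 of 14942 genes were unchanged, 38.3% of 2-fold changes at 20 CPM or less were called. In the real comparison 68.5% of genes tested were called, so the simulated share does not carry over to the 10 genes. Of these, CDX2 alone exceeded 20 CPM in any library.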
